A study of Mus musculus with 6 samples.

Results

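AMP-activated protein kinase (AMPK) is the energy sensor of the cell, and its genes are followed here in haematopoietic stem cells (HSCs) with and without *Maea*. The 9 genes are the catalytic alpha subunits *Prkaa1* and *Prkaa2*, the scaffolding beta subunits *Prkab1* and *Prkab2*, the nucleotide-binding gamma subunits *Prkag1*, *Prkag2* and *Prkag3*, and the upstream kinases *Stk11* (Lkb1) and *Camkk2*. They were found by gene symbol, with no measured value in the rule, and took 9 of the 46959 rows of the expression table. Of these, 8 had a level of at least 1 CPM (reads of the gene scaled to a common library size) in at least 3 libraries and were tested with 12955 genes in all, and *Prkag3* did not reach that level. HSCs were sorted from bone marrow as lineage- Sca-1+ c-Kit+ CD150+ CD48- cells, and RNA of 2000 cells pooled from 2 mice made each library. There were 3 libraries from control mice and 3 from MaeaCsf1r-Cre mice, and each is listed with an age of 8 weeks. The study calls the controls littermates, but it gives a range of ages for the mice of these libraries and not a single age. Whether age differed between the pools is not stated. In MaeaCsf1r-Cre mice the floxed *Maea* alleles are deleted by Csf1r-iCre, a transgene on the C57BL/6 background whose promoter is best known from mononuclear phagocytes, so macrophages around the HSCs carry the deletion too. The labels of the controls say only control. The study genotyped its mice routinely, and for this model it describes the controls as Maea fl/fl and the deleted mice as Maea fl/fl with Cre. In competitive transplantation it also used Maea fl/+ littermates with Csf1r-Cre as controls. Which of these genotypes the controls of the libraries had is not stated.

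As background, AMPK is a trimer of 1 alpha, 1 beta and 1 gamma subunit. AMP and ADP bind the gamma subunit when ATP runs low, and the kinase becomes fully active once a threonine in the activation loop of the alpha subunit is phosphorylated. Lkb1, held in an active complex with a Strad pseudokinase and the Mo25 scaffold, is the main kinase for this threonine, and CaMKK2 phosphorylates it when calcium rises. Active AMPK slows lipid and protein synthesis and promotes autophagy and mitochondrial renewal. In mice, loss of Lkb1 is known to exhaust the HSC pool, in large part without AMPK. All of these steps are regulated on the protein, so transcript levels give the supply of subunits and not the activity of the kinase.

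The number of reads behind the CPM scaling, worked out from the steps between low values, was 32966000 to 39612000 in control and 44157000 to 60935000 in MaeaCsf1r-Cre libraries. With limma on log2(CPM + 1), 1 gene passed an adjusted p of 0.05 in all, which is 0.00772% of those tested. *Maea* itself, a subunit of the CTLH ubiquitin ligase, was at 108, 116 and 123 CPM in the control and 76.9, 88.6 and 101 in the MaeaCsf1r-Cre libraries. Its groups did not overlap, but its log2 fold change of -0.39 ± 0.13 (SE) did not pass (limma adjusted p = 0.967), and the values cover the whole gene, not the deleted exons alone. All 10 HSC markers examined were expressed, with summed levels of 1048 to 1640 CPM in control and 711 to 1346 CPM in MaeaCsf1r-Cre libraries. Macrophage markers summed to 73.4, 20.8 and 62.2 CPM in the control and 3.68, 8.77 and 48.2 in the MaeaCsf1r-Cre libraries. The mean of all 10 of these markers was lower in MaeaCsf1r-Cre libraries, and 5 of the 10 (*C1qa*, *C1qb*, *C1qc*, *Cd5l* and *Csf1r*) did not overlap between the groups. Of all tested genes, 6.06% were lower without overlap. Of the 10 markers, 7 were high enough to be tested, and *Cd5l* was not among them. B cell markers summed to 33.8, 55.4 and 35.6 CPM in control and 13.9, 25.2 and 26.98 CPM in MaeaCsf1r-Cre libraries, with no overlap. Of these 8 markers 1, the immunoglobulin heavy chain gene *Ighm*, was lower without overlap, where 6.06% of all tested genes were. It was at 7.51 to 29.5 CPM in control and 0.279 to 2.26 CPM in MaeaCsf1r-Cre libraries, while *Ms4a1* and *Pax5* were listed at 0 in all 6.

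None of the 8 AMPK genes tested passed the threshold, and of the 9 genes *Prkaa2* stood lowest in MaeaCsf1r-Cre HSCs relative to control. Its mean CPM in control was 2.20 times that in MaeaCsf1r-Cre HSCs. *Prkaa1*, the main alpha subunit of these cells by transcript level, was at nearly the same mean in both groups. Of the 8 genes, 1 (*Prkaa2*) had an unadjusted limma p under 0.05 and was lower, where 3.19% of all tested genes were (3.99% in either direction). Both *Prkaa2* and *Camkk2* were lower without overlap between the groups, where 6.06% of all tested genes were, and none of the 8 was higher without overlap, against 2.49% (8.55% in either direction). The signs were even, with 4 genes lower and 4 higher and a median log2 fold change of -0.05, while 60.9% of all tested genes were lower and their median was -0.06.

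**Figure D1:**
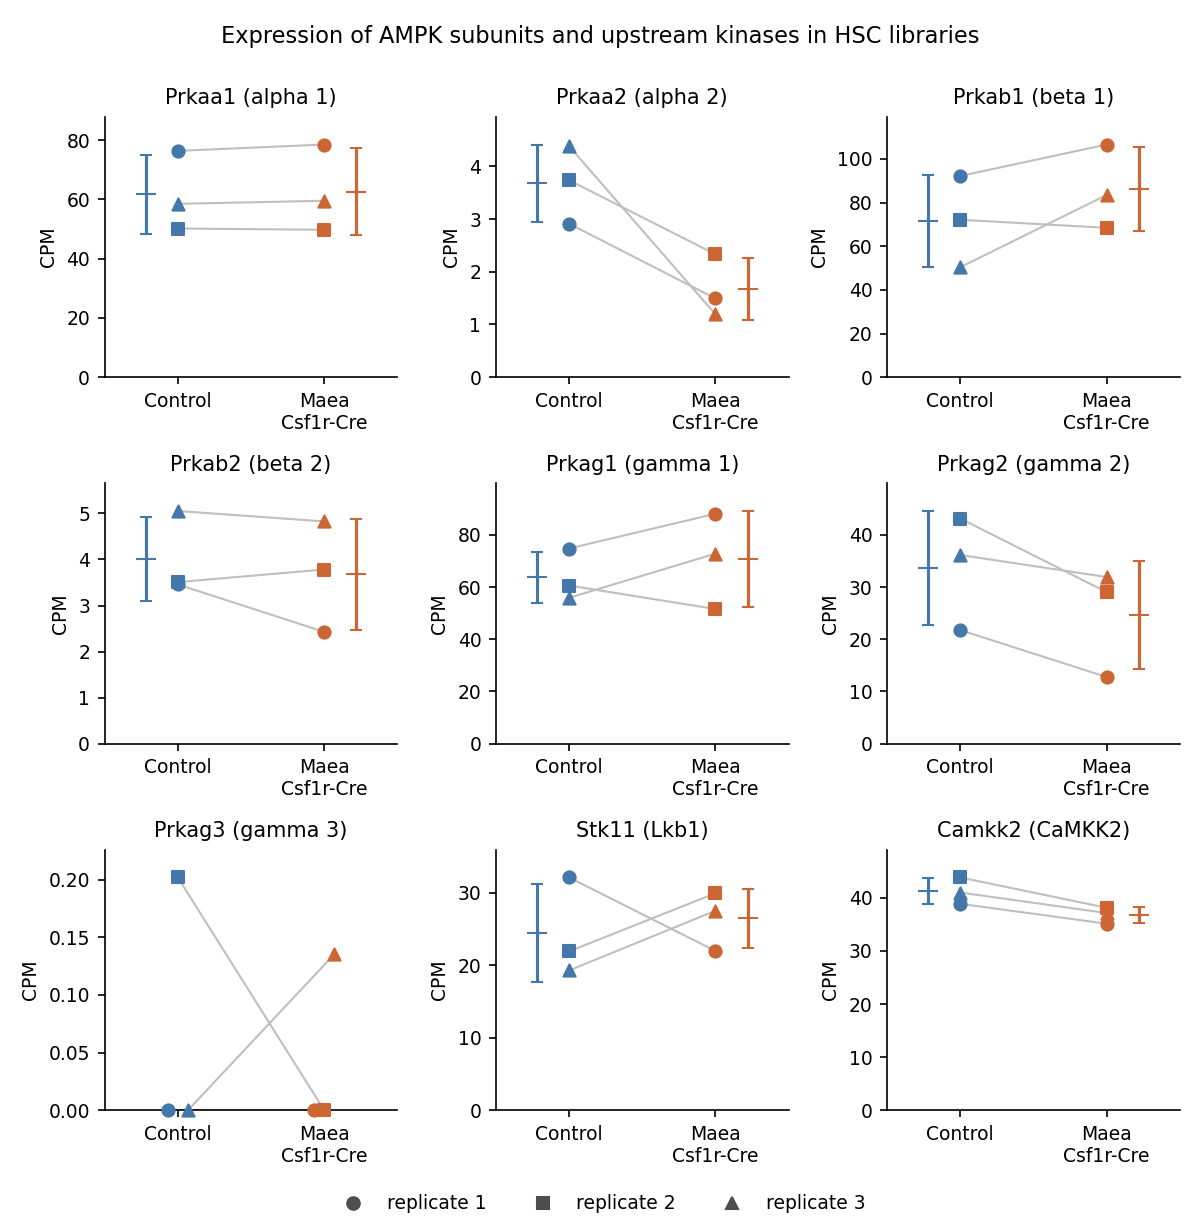
Expression (CPM, linear axes starting at 0) of the 9 AMPK genes in the 3 control (blue) and 3 MaeaCsf1r-Cre (orange) libraries, with grey lines joining libraries of the same replicate number and bars giving the mean ± SD, left out for *Prkag3*. The control and MaeaCsf1r-Cre points of *Prkaa2* and *Camkk2* do not overlap, and those of the other 7 genes do.

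The alpha subunits are encoded by *Prkaa1* (chr15:5143861-5181899, plus strand) and *Prkaa2* (chr4:105029874-105109890, minus strand; GRCm38, as for all positions here). The activation loop of both is shown because it holds the threonine that Lkb1 and CaMKK2 phosphorylate, and because its likeness bears on whether reads of the genes can be told apart. In both genes the stretch is coding sequence in exon 5 of 9 of the GENCODE transcript, at chr15:5169943-5169993 in *Prkaa1* and chr4:105049357-105049407 in *Prkaa2*. The capitals mark the threonine codon, number 183 in *Prkaa1* and number 172 in *Prkaa2*.
Prkaa1: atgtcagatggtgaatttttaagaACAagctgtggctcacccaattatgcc
Prkaa2: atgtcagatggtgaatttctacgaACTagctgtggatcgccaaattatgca
Of these 51 bases, 44 are equal in both genes, and the threonine codon itself differs in its last base. The longest stretch that the full transcripts share is 35 bases, shorter than the 150-base reads of the study.

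*Prkaa2*, which encodes the alpha 2 catalytic subunit, was a low transcript at 2.91, 3.74 and 4.38 CPM in control libraries and 1.49, 2.33 and 1.20 CPM in MaeaCsf1r-Cre libraries. All 3 MaeaCsf1r-Cre values lay below all 3 control values, and each was below the control library of the same replicate number. These levels rest on 96, 148 and 150 reads in control and 91, 103 and 53 reads in MaeaCsf1r-Cre libraries. By counting error alone, the lowest control value (2.91 CPM, 95% Poisson interval 2.36 to 3.56) and the highest MaeaCsf1r-Cre value (2.33 CPM, 1.90 to 2.83) had overlapping intervals. The mean was 3.68 ± 0.737 (SD, n = 3) CPM in control and 1.67 ± 0.590 (SD, n = 3) CPM in MaeaCsf1r-Cre HSCs. The log2 fold change of CPM + 1 was -0.82 ± 0.25 (SE), with a 95% interval of -1.39 to -0.24. It ranked 104 of 12955 genes by limma p (unadjusted p = 0.012) and did not pass after adjustment (limma adjusted p = 0.967).

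With the replicate number as a block, the limma adjusted p of *Prkaa2* was 0.2495. That fit gave an unadjusted p under 0.05 to 13.9% of all genes, and a lower value with such a p to 10.8%. Among the 8 AMPK genes it gave one to *Prkaa2* and *Prkag2*, both lower. *Prkaa2* also has the longest transcript of the 9 genes at 7969 bases, and over 12473 genes the log2 fold change was lower in longer transcripts (Spearman's rho of -0.315, across genes). After correction for length in each library, its log2 fold change was -0.63. In sorted bulk samples, fewer cells with the transcript and less of it per cell cannot be told apart. Macrophage marker sums overlapped between the groups, with 20.8 CPM in control replicate 2 and 48.2 CPM in MaeaCsf1r-Cre replicate 3, while B cell marker sums did not. The 5 macrophage markers without overlap were lower in the same 3 libraries as *Prkaa2* by the way they were picked. In MaeaCsf1r-Cre replicate 3, which had the lowest *Prkaa2*, the macrophage sum of 48.2 CPM came mostly from *Vcam1* (30.0 CPM) and *Mrc1* (10.8 CPM), with *C1qa* at 0.0677 CPM. The part of these cells in the *Prkaa2* result was not tested. The study placed *Prkaa2* among the pro-autophagy genes it showed from these same libraries, and it reported that this group of genes did not change significantly. The direction of *Prkaa2* there is not independent evidence.

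*Prkaa1* encodes the alpha 1 catalytic subunit. It was at 76.4, 50.2 and 58.5 CPM in control libraries and 78.5, 49.8 and 59.5 CPM in MaeaCsf1r-Cre libraries. Libraries of the same replicate number lay close together, and the spread within each group was far wider than the difference between them. Its log2 fold change was 0.02 ± 0.21 (SE), with a 95% interval of -0.47 to 0.51 (limma adjusted p = 0.995), or 0.720 to 1.42 times the control level.

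**Figure D2:**
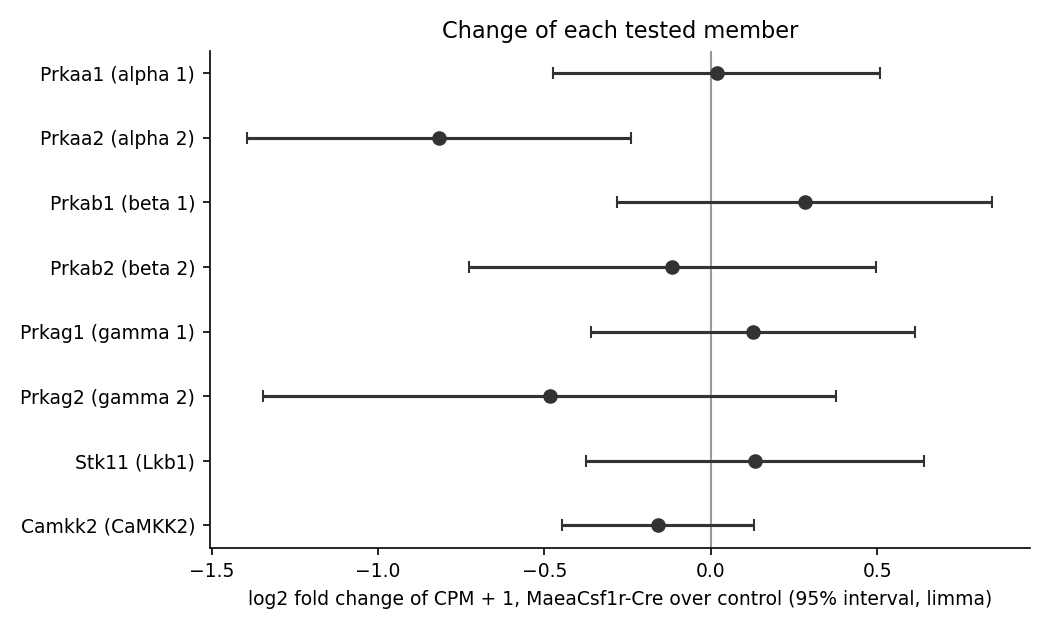
Log2 fold change of CPM + 1 (MaeaCsf1r-Cre over control) of the 8 tested AMPK genes, with 95% intervals from limma. *Prkaa2* at -0.82 is the gene of the 8 whose interval leaves out 0, before adjustment over 12955 genes.

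The beta subunits hold the trimer together and carry a glycogen-binding module. *Prkab1* (beta 1; chr5:116013586-116024508, minus strand) was at 92.2, 72.1 and 50.4 CPM in the control and 106.6, 68.4 and 83.5 in the MaeaCsf1r-Cre libraries. The groups overlapped, and the highest and the lowest of the 6 values came from MaeaCsf1r-Cre replicate 1 and control replicate 3. Its log2 fold change of 0.28 ± 0.24 (SE; 95% interval -0.28 to 0.85) did not pass (limma adjusted p = 0.967), and it was 0.055 without control replicate 3 and 0.48 without control replicate 1. *Prkab2* (beta 2; chr3:97658193-97673812, plus strand) was much lower, at 3.46, 3.51 and 5.05 CPM in the control and 2.43, 3.78 and 4.83 in the MaeaCsf1r-Cre libraries. Its values were as mixed between the groups, and its log2 fold change of -0.12 ± 0.26 (SE; limma adjusted p = 0.974) turned to 0.041 with the correction for transcript length and to 0.063 with quantile normalization.

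The gamma subunits bind AMP, ADP and ATP. *Prkag1* (gamma 1; chr15:98812797-98831521, minus strand) was at 74.8, 60.6 and 55.9 CPM in the control and 88.1, 51.6 and 72.8 in the MaeaCsf1r-Cre libraries, and MaeaCsf1r-Cre HSCs held both the highest and the lowest value. Its log2 fold change was 0.13 ± 0.21 (SE; limma adjusted p = 0.972). *Prkag2* (gamma 2; chr5:24862744-25100642, minus strand), known for mutations that cause a glycogen-storing heart disease, was at 21.7, 43.1 and 36.1 CPM in the control and 12.8, 29.0 and 31.9 in the MaeaCsf1r-Cre libraries. The groups overlapped, since control replicate 1 lay below both MaeaCsf1r-Cre replicates 2 and 3, but each MaeaCsf1r-Cre library was below its same-numbered control. Of the 8 tested genes, *Prkaa2*, *Prkag2* and *Camkk2* were lower in 3 of 3 such pairs, where 23.5% of all tested genes were. The log2 fold change of *Prkag2* was -0.48 ± 0.37 (SE; 95% interval -1.34 to 0.38; limma adjusted p = 0.967), and with the replicate block its limma adjusted p was 0.265. *Prkag3* (gamma 3; chr1:74738922-74749221, minus strand), the subunit best known from fast skeletal muscle, was listed at 0 in 4 of the 6 libraries. It was at 0.202 CPM (8 reads) in control replicate 2 and 0.135 CPM (6 reads) in MaeaCsf1r-Cre replicate 3. A signal of 3 reads was 0.0492 to 0.0910 CPM in these libraries, so lower levels of *Prkag3* were not detectable at this depth, counting error only. Of 5 skeletal muscle markers, *Myh4* was listed at 0 in all 6 libraries, *Acta1* and *Tnnt3* in 5 of 6, *Ckm* was at 0.0451 to 0.385 CPM and *Mylpf* at 2.89 to 10.5 CPM.

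*Stk11*, the gene of Lkb1 (chr10:80115803-80130682, plus strand), was at 32.1, 21.9 and 19.3 CPM in the control and 21.9, 29.9 and 27.5 in the MaeaCsf1r-Cre libraries. Control replicate 1 was the highest and control replicate 3 the lowest of the 6 values, so the MaeaCsf1r-Cre values lay within the control range. Its log2 fold change was 0.13 ± 0.22 (SE; 95% interval -0.37 to 0.64; limma adjusted p = 0.972), and without control replicate 3 it was -0.015. *Camkk2*, the calcium-dependent kinase of AMPK (chr5:122731170-122779409, minus strand), had the narrowest spread of the 9 genes relative to its level, with 38.9, 43.9 and 41.0 CPM in the control and 35.1, 38.1 and 37.1 in the MaeaCsf1r-Cre libraries. The groups did not overlap, with means of 41.3 ± 2.496 (SD, n = 3) and 36.8 ± 1.53 (SD, n = 3) CPM. The difference was small, however, with a log2 fold change of -0.16 ± 0.13 (SE; 95% interval -0.45 to 0.13; limma adjusted p = 0.967), and it was -0.01 after correction for transcript length.

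Reads of some of these genes may include those of a neighbour. The exons of *Prkab2*, *Prkag1*, *Prkag2* and *Stk11* overlap annotated genes on the other strand (*Gm17651*, *B130046B21Rik*, *Prkag2os1* and *Prkag2os2*, and *Cbarp*), and the library kit does not mark strand. The values of *Prkag1* lay on whole reads in 0 of 6 libraries and those of *Stk11* in 1 of 6, within 0.05 of a read, so these values are not whole numbers of reads. Those of *Prkag2* and *Camkk2* did in 5 of 6 libraries, and no annotated gene overlaps the exons of *Camkk2*. Those of *Prkaa1*, *Prkaa2*, *Prkab1*, *Prkab2* and *Prkag3* lay on whole reads in all 6 libraries, although *Prkab2* has such an overlap. Where the parts of reads came from was not tested.

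Levels were compared between genes as CPM per kilobase (kb) of the longest protein-coding transcript. In control HSCs *Prkag1* (38.6 ± 5.95 CPM per kb, SD, n = 3) and *Prkab1* (34.3 ± 10.01 CPM per kb) were highest, and their ranges overlapped. *Prkaa1* (13.3 ± 2.87 CPM per kb), *Prkag2* (10.1 ± 3.27), *Stk11* (9.51 ± 2.64) and *Camkk2* (8.49 ± 0.513) followed below them, each overlapping the next. *Prkab2* (0.800 ± 0.181 CPM per kb), *Prkaa2* (0.461 ± 0.0924 CPM per kb) and *Prkag3* (mean 0.0238 CPM per kb) came last and did not overlap each other. The order in MaeaCsf1r-Cre HSCs was the same except that *Prkag2* (7.38 ± 3.10 CPM per kb) stood below *Stk11* (10.3 ± 1.59) and *Camkk2* (7.57 ± 0.315), and its range overlapped that of *Camkk2*. This change of order depended on the length used. Per kb of all exons joined, the mean of *Prkag2* lay between those of *Stk11* and *Camkk2* in both groups. The means of *Stk11*, *Prkag2* and *Camkk2* were then 5.33, 5.20 and 3.78 in control and 5.77, 3.79 and 3.37 in MaeaCsf1r-Cre HSCs. By transcript level the leading subunits were thus alpha 1, beta 1 and gamma 1 in both groups.

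Because AMPK takes 1 subunit of each kind, the share of the second isoform was computed within each kind from CPM per kb. *Prkaa2* made up 2.18, 4.17 and 4.19% of alpha transcript in control and 1.10, 2.67 and 1.16% in MaeaCsf1r-Cre libraries. The share was lower in each of the 3 same-numbered pairs, but control replicate 1 lay below MaeaCsf1r-Cre replicate 2 and the groups overlapped. The means were 3.51 ± 1.16% and 1.64 ± 0.888% (SD, n = 3 each), and an exact two-sided permutation test over the 20 labellings of the libraries gave p = 0.2, where 0.1 is the smallest it can give. *Prkag2* made up 12.6, 26.1 and 24.3% of the sum with *Prkag1* in control and 6.71, 21.8 and 17.9% in MaeaCsf1r-Cre libraries (exact permutation p = 0.5), again lower in 3 of 3 pairs with overlapping groups. The difference of its means was -5.53 percentage points, -1.15 without MaeaCsf1r-Cre replicate 1 and -9.72 without control replicate 1. *Prkab2* made up 1.54 to 4.02% of beta transcript in control and 0.942 to 2.36% in MaeaCsf1r-Cre libraries (exact permutation p = 0.6). Adjusted over the 3 shares by the Benjamini-Hochberg method, each exact permutation p was 0.6. The summed alpha level was 13.7 ± 2.81 CPM per kb in control and 13.7 ± 3.10 in MaeaCsf1r-Cre HSCs, since *Prkaa2* adds so little to it. The summed beta level was 35.1 ± 9.84 and 42.0 ± 9.05 CPM per kb, and the summed gamma level was 48.7 ± 3.66 and 50.3 ± 9.10 CPM per kb (SD, n = 3 each).

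**Figure D3:**
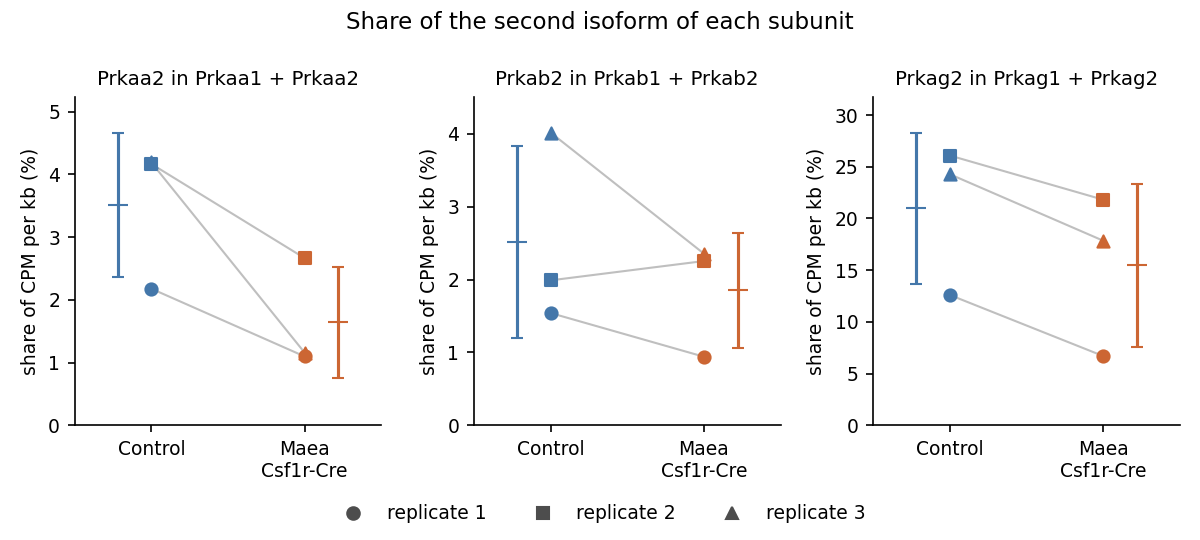
Share (%) of *Prkaa2*, *Prkab2* and *Prkag2* in the summed CPM per kb of the pair of isoforms of each subunit, per library, with grey lines joining the same replicate number and bars giving the mean ± SD. The shares of *Prkaa2* and *Prkag2* are lower in MaeaCsf1r-Cre in each of 3 pairs, and the groups overlap for all 3 genes.

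The other genes around AMPK were described from lists by role. The partners of Lkb1 and the other upstream kinases (6 genes, all tested) were close to the median of all genes, with 4 lower and 2 higher and a median log2 fold change of -0.05. *Strada*, the pseudokinase that activates Lkb1, had means of 26.98 ± 5.13 CPM in control HSCs and 27.3 ± 3.42 CPM in MaeaCsf1r-Cre HSCs (SD, n = 3 each), and *Stradb* had a log2 fold change of -0.06 ± 0.21 (SE). *Cab39*, the gene of the Mo25 scaffold, was at 119 ± 12.1 and 110 ± 16.3 CPM (SD, n = 3 each), and *Cab39l* had a log2 fold change of -0.04 ± 0.13 (SE). None of the 6 had an unadjusted limma p under 0.05 with or without the block.

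The AMPK-related kinases, a family whose members are also activated by Lkb1, had 8 of 12 genes tested. All 8 had a log2 fold change below 0, with a median of -0.17, but none had an unadjusted limma p under 0.05, and 1 did with the block and was lower, where 10.8% of all tested genes were. After correction for transcript length 4 of the 8 were lower, while the share of all genes lower went from 60.9 to 43.8%. *Sik1*, a salt-inducible kinase, was at 7.64, 15.8 and 12.0 CPM in the control and 5.40, 8.07 and 9.18 in the MaeaCsf1r-Cre libraries (log2 fold change -0.56 ± 0.29, SE). *Sik2* was at 20.3, 24.3 and 24.7 CPM in the control and 17.0, 19.6 and 20.04 in the MaeaCsf1r-Cre libraries (-0.28 ± 0.16), and of the 8 its groups alone did not overlap, where 6.06% of all tested genes were lower without overlap. *Snrk* (-0.21 ± 0.22) and *Sik3* (-0.17 ± 0.18) overlapped. *Mark1*, *Nuak1*, *Brsk1* and *Brsk2* were too low to test.

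Genes of proteins that AMPK phosphorylates or acts through had 21 of 22 tested, 17 lower and 4 higher, with a median log2 fold change of -0.10. None passed after adjustment or had an unadjusted limma p under 0.05, and 3 had one with the block, all lower, where 10.8% of all tested genes were. Of all tested genes 60.9% were lower. With the length correction 10 of the 21 were lower, and 43.8% of all. *Txnip*, an inhibitor of glucose uptake that AMPK marks for breakdown, was at 370, 555 and 280 CPM in the control and 127, 309 and 311 in the MaeaCsf1r-Cre libraries (log2 fold change -0.74 ± 0.38, SE), where control replicate 3 lay below both MaeaCsf1r-Cre replicates 2 and 3. *Foxo3*, a transcription factor needed for HSC maintenance, was at 50.7 ± 13.1 and 37.5 ± 8.88 CPM (SD, n = 3 each), with overlapping groups. *Fnip1*, which with folliculin restrains the lysosomal response to low nutrients, was at 14.7, 16.3 and 16.4 CPM in the control and 11.1, 12.8 and 14.4 in the MaeaCsf1r-Cre libraries (-0.30 ± 0.17). Its groups did not overlap. *Tbc1d4*, a brake on glucose transporter traffic, had a log2 fold change of -0.37 ± 0.32 (SE).

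Regulators of AMPK and of adenine nucleotides were all tested (14 genes), 9 lower and 5 higher with a median log2 fold change of -0.07, and 5 were lower with the length correction. None passed after adjustment, 2 were lower with an unadjusted limma p under 0.05 (3.19% of all tested genes were), and 3 were with the block (10.8% of all). *Sesn1*, a sestrin that restrains mTORC1 and promotes AMPK activity, was at 87.0, 109 and 88.6 CPM in the control and 46.6, 54.3 and 79.0 in the MaeaCsf1r-Cre libraries. All 3 MaeaCsf1r-Cre values were below the control values (log2 fold change -0.68 ± 0.20, SE; limma adjusted p = 0.967, and 0.218 with the block). *Ak4*, a mitochondrial adenylate kinase, was at 8.63, 15.9 and 14.3 CPM in the control and 3.21, 7.79 and 9.52 in the MaeaCsf1r-Cre libraries (-0.89 ± 0.38; limma adjusted p = 0.967, and 0.198 with the block), and the groups overlapped. *Sesn3* (-0.54 ± 0.35) was at 5.48 ± 1.93 and 3.57 ± 1.76 CPM (SD, n = 3 each), with overlapping groups.

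**Figure D4:**
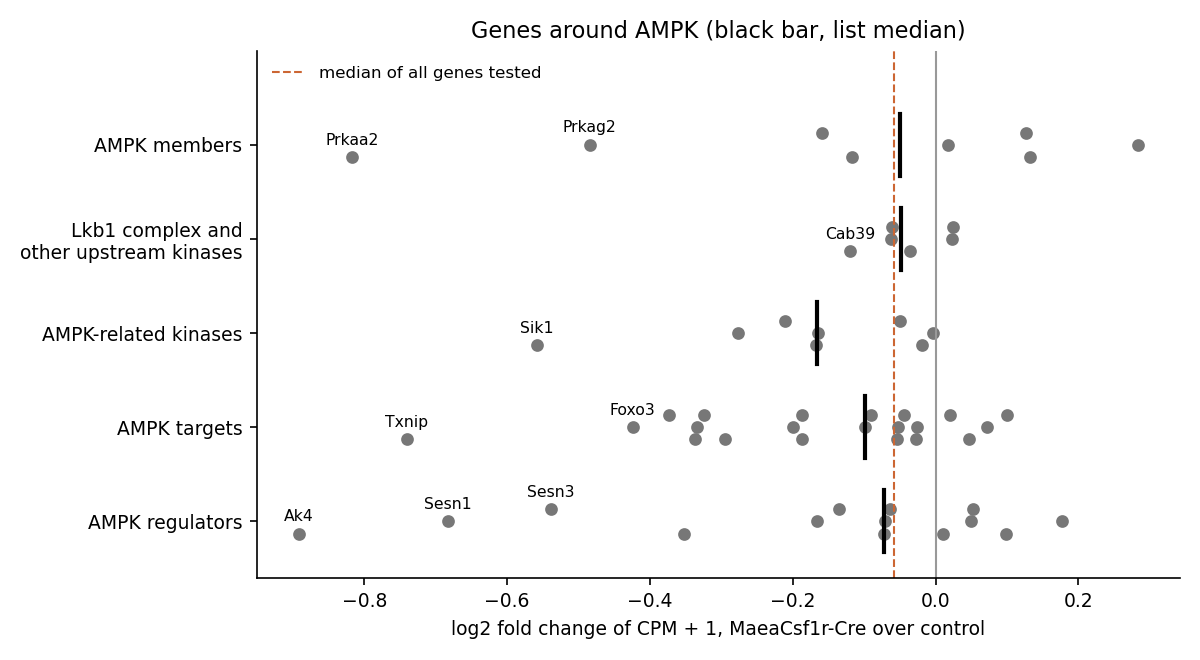
Log2 fold change of CPM + 1 (MaeaCsf1r-Cre over control) of each tested gene of 5 lists, 1 point per gene, with a black bar at the list median and a dashed line at the median of all 12955 genes (-0.06). The medians lie between -0.17 and -0.05, and *Ak4* (-0.89) and *Prkaa2* (-0.82) lie farthest to the left.

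The genes whose log2(CPM + 1) ran most alike with 3 of the AMPK genes over the 6 libraries were also picked out, as a description of 6 values that share their libraries. For *Prkaa1* they were *Idh3a* (Pearson's r of 0.999), a subunit of mitochondrial isocitrate dehydrogenase, *Tmem208* (0.998) and *Stt3b* (0.997), a catalytic subunit of oligosaccharyltransferase. *Idh3a* was at 267, 191 and 213 CPM in the control and 275, 187 and 219 in the MaeaCsf1r-Cre libraries, so like *Prkaa1* it followed the replicate number and not the group. For *Prkaa2* they were *Gm14440* (0.9802), the zinc finger gene *Zfp518b* (0.9747) and *Ebag9* (0.973). *Zfp518b* was at 7.98, 10.1 and 11.4 CPM in the control and 6.42, 7.56 and 6.16 in the MaeaCsf1r-Cre libraries, with no overlap, as for *Prkaa2*. Of all tested genes, 6.06% were lower without overlap. The patterns of *Idh3a* and *Zfp518b* follow from the way they were picked, by likeness over the same 6 libraries. They are not separate evidence for those of *Prkaa1* and *Prkaa2*. For *Stk11* the likeness was looser, with *Gm24245* (0.942), the pseudogene *Rpsa-ps5* (0.934), whose reads may belong to near-identical copies, and *Dnajc28* (0.928).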

How the data were processed

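The authors used SMART-Seq v4 with Nextera XT for the libraries, trimmed single-end reads with Trim Galore, aligned them to mm10 with STAR 2.5.3a and quantified Ensembl transcripts with Partek Flow. The deposited table holds CPM plus 0.0001, which was taken off. Exact counts were not recovered for all genes, so no count test was used. Genes with at least 1 CPM in at least 3 libraries were tested, MaeaCsf1r-Cre against control and two-sided, with the moderated linear model of limma 3.58.1 on log2(CPM + 1) with a mean-variance trend. Fold changes are on that scale, which understates those of low genes. Adjustment was by Benjamini-Hochberg over 12955 genes with a threshold of 0.05. Replicate numbers come from the labels. Deviations from the group means correlated between libraries of the same number (r = 0.627, 0.523 and 0.397 over genes), so a fit with the replicate number as a block was also made. Isoform shares were compared by exact permutation. Positions and lengths are from GENCODE M21 (GRCm38), which matched 44191 rows by symbol, and 12473 tested genes had a length. The length correction subtracted a loess curve of log2 values on transcript length in each library. The intervals on reads cover counting error only. The linear model was also run on simulated data without the shared replicate pattern of these libraries, so that run does not show how the model behaves on them. Genes named beside the 9 were *Maea*, the partners of Lkb1, the 4 genes with the smallest p in each of 3 lists and the 3 most alike with *Prkaa1*, *Prkaa2* and *Stk11*. Some genes are not reported here. The members and lists were chosen with earlier results of these data known. Alternatives were another pseudocount, other filters, scalings, the block, the length correction, no trend and leaving out each library.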

Additional observations from a re-analysis of the deposited data

How the results depend on the processing

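None of the 8 AMPK genes passed the threshold under any of the alternatives run. Of 118 alternative values of their log2 fold changes, 108 kept their sign. *Prkaa2* stayed between -1.12 and -0.63, with -0.99 to -0.69 when 1 library was left out, and its lowest limma adjusted p was 0.2495, with the replicate block. The genes past the threshold were 1 in all, 1 with the replicate block, 0 with a filter at 10 CPM and 16 with the length correction and the replicate block together. Leaving out 1 library gave 0 (without control replicate 2 or 3) to 3 (without MaeaCsf1r-Cre replicate 3). At an unadjusted limma p under 0.05 there were 517 genes in all, 1805 with the replicate block, 302 with a filter at 10 CPM, and 266 and 331 without control replicates 2 and 3. *Prkab2* turned to 0.063 with quantile normalization and to 0.041 with the length correction, with or without the block. With 1 library left out, it ran from -0.29 to 0.091, *Prkaa1* from -0.16 to 0.18, *Prkag1* from -0.045 to 0.34 and *Stk11* from -0.015 to 0.34. Without changing sign, *Prkag2* ran from -0.76 to -0.09, *Prkab1* from 0.055 to 0.48 and *Camkk2* from -0.20 to -0.12. With the length correction the genes lower were 0 of 6 upstream partners, 4 of 8 AMPK-related kinases, 10 of 21 targets and 5 of 14 regulators; leaving out 1 library gave 1 to 5 of the upstream partners and 5 to 8 of the AMPK-related kinases. The difference in *Prkaa2* share was -3.09 percentage points on CPM not divided by length, and that of *Prkab2* ran from -1.15 to 0.0854 points, of *Prkaa2* from -2.54 to -1.53 and of *Prkag2* from -9.72 to -1.15 with 1 library left out. The causes of these shifts were not tested.

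*Prkaa2* and *Prkab2* were too low for the filter at 10 CPM.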

Other observations

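*Prkaa1*, *Prkab1* and *Prkag1* were each highest in the replicate 1 library within both the control and the MaeaCsf1r-Cre group, and *Prkag2* was lowest there in both. Over the 6 libraries *Prkaa1* and *Prkag2* had a Pearson's r of -0.84 on log2(CPM + 1), and *Prkaa1* and *Prkag1* one of 0.86, given as a description of values that share their libraries. The replicate 1 libraries also held the most erythroid marker transcript, with 3871 CPM summed over 7 markers in control replicate 1 and 4137 CPM in MaeaCsf1r-Cre replicate 1, against 828 to 1853 CPM in the other 4 libraries. The part of erythroid transcript in the subunit levels was not tested.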
